A study of Mus musculus with 4 samples.

Results

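The genes that cut, protect and crosslink the heart's extracellular matrix were followed across cell classes and libraries of a mouse sepsis study. They were taken by gene symbol as every Mmp, Timp, Adamts and Lox family gene of the count matrices, with Mmp8 and Mmp9 left aside, which gave 48 of 32285 genes: 20 Mmp, 4 Timp, 19 Adamts and 5 Lox genes. Cells of whole mouse hearts were sequenced in 4 droplet libraries, 1 for each group. The groups were labelled control, sham, cecal ligation and puncture (abbreviated CLP, an operation that opens the gut and causes sepsis) and sepsis with low-level tragus stimulation. The last of these, called CLP plus stimulation here, carries a treatment label that names the stimulation alone. The tragus is a part of the outer ear reached by a vagus nerve branch, which is stimulated there through the skin. The strain, sex, age and number of animals, the sham procedure and the sampling time are not stated in the labels. With 1 library per group there is no test and no p-value, and every interval below is a 95% interval for counting error only.

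Matrix metalloproteinases (MMPs) are zinc enzymes that together can cut most proteins of the matrix. Tissue inhibitors of metalloproteinases (TIMPs) bind their active site, and TIMP3 also restrains enzymes of the ADAMTS family. ADAMTS enzymes are secreted proteases that trim procollagens, cleave proteoglycans such as versican, or act on the microfibrils of elastic fibres. Lysyl oxidases, encoded by Lox and Loxl1 to Loxl4, crosslink collagen and elastin and thereby stiffen the matrix. In the heart most of the matrix is made by fibroblasts, and its turnover shapes scarring and chamber wall strength after injury.

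Of the 48 genes, 8 Mmp genes lie side by side on chromosome 9 between positions 7272514 and 7699585 (GRCm38). Their promoters are shown because neighbours in this block are read out in different cell classes and differ between libraries in opposite directions, as described further on. The 100 bases before the start of the 4 measured neighbours are printed from RefSeq (GRCm38.p6), all on the plus strand, with capitals marking a match to TGANTCA, the AP-1 motif. They are chr9:7272414-7272513 for Mmp13, chr9:7344297-7344396 and chr9:7347274-7347373 for the first and second of 2 listed starts of Mmp12, chr9:7445722-7445821 for Mmp3 and chr9:7571296-7571395 for Mmp27.
Mmp13: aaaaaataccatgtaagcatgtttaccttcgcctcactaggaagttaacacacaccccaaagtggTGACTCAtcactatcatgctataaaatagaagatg
Mmp12, first start: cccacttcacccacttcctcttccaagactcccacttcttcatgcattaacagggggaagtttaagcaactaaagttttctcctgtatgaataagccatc
Mmp12, second start: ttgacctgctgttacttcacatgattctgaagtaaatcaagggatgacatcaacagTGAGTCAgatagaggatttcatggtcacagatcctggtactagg
Mmp3: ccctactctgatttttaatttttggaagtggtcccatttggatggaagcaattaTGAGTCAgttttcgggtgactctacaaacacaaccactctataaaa
Mmp27: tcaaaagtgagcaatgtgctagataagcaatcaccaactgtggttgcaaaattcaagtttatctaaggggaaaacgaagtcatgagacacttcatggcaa
The match began 35 bases before the start in Mmp13, 44 before the second start of Mmp12 and 46 in Mmp3. The first start of Mmp12, which lies closer to the annotated start of the gene, and Mmp27 held none in this window.

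RefSeq promoters were matched for 31 of the 48 genes. On both strands of the 250 bases before the start, TGANTCA was found at 1 or more listed starts of 7 genes, all of them in the chromosome 9 block, where 7 of 8 genes held it. None of the other 23 genes did. Of 32851 promoters of the same length, 6.75% held this motif. The first start of Mmp12 held none in 250 bases either. The STAT motif TTCNNNGAA was found in 1 of the 31 genes (7.02% of all promoters) and an NF-kappaB motif in 3 (17.6% of all promoters). A match describes the letters and is not evidence of binding.

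The matrices held 8741 to 15964 cell barcodes per library, with median depths of 2995, 5307, 5482 and 4945 UMIs (unique molecules counted) in the 37540 cells kept of control, sham, CLP and CLP plus stimulation. Library pairs shared 19 to 60 barcodes, at most 0.686% of the smaller library. Classes were gated cell by cell from marker genes, none of which is among the 48, and are called by those markers. Fibroblast-like cells numbered 3178, 1684, 1973 and 1242 in the 4 libraries, endothelial-like cells 3297, 1679, 2079 and 583, and macrophage-like cells 4014, 3087, 1564 and 2704. In CLP plus stimulation 29.3% of cells passed no gate, against 9.41% to 14.5% elsewhere. When cells were clustered without the 48 genes, Mmp8 and Mmp9, the largest cluster of a class depended on the library. Fibroblast-like cells lay mainly in cluster 15 in control and sham and in cluster 28 in both CLP libraries. Endothelial-like cells lay mainly in clusters 0 and 1, then 2, then 31, and macrophage-like cells in cluster 5, then 29, then 30. Clusters drawn mostly from 1 library may reflect the library rather than a cell type. Levels are given in CPM, which scales a gene's UMIs to the UMI total of the class in that library. Levels of different genes are not ranked against each other.

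At least 20 counts in some class were reached by 39 genes, which are called measured here. The other 9 were Mmp1b, Mmp7, Mmp10, Mmp20, Mmp21, Mmp24, Adamts13, Adamts16 and Adamts18. Only classes with at least 50 cells in 2 or more libraries were ranked, which left out glial-like and lymphatic-like cells, among others. Of the ranked classes, fibroblast-like cells had the highest mean level over libraries for 18 of the 39 genes. Pericyte-like and endothelial-like cells had it for 6 each, smooth muscle-like cells for 3 and macrophage-like cells for 2. Of the UMIs of Adamts4, an aggrecan-cleaving protease, 66.9% came from fibroblast-like cells although its level was highest in the few pericyte-like cells. The collagenase Mmp13 and the elastase Mmp12 had their highest mean level in macrophage-like cells and the leukocyte protease Mmp25 in neutrophil-like cells. The membrane protease Mmp15 had it in endothelial-like cells. In control, the 57 glial-like cells, which were not ranked, held Mmp15 at 199 CPM, against 139 in endothelial-like cells. The inhibitor Timp4 averaged 635 CPM in endothelial-like cells, against 55.9 in cardiomyocyte-like cells, its next class. The genes Timp1, Timp3 and Timp4 each lie within a synapsin gene on the opposite strand, which had 145 counts (Syn1) against 31557 of Timp1, 1886 (Syn3) against 94414 of Timp3, and 1094 (Syn2) against 29020 of Timp4.

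Sham over control gives the difference between libraries without sepsis, and few of the genes differed. In fibroblast-like cells 1 of 36 measured genes passed the limit of a 2-fold difference with at least 20 counts over both libraries, against 2.02% of all genes. This was Timp4, at 2.80 and 1.35 CPM. In endothelial-like cells 1 of 26 passed (2.05% of all genes) and in macrophage-like cells 2 of 22 (3.19%). These calls rested on few counts, from 7 in sham and 16 in control (Mmp23, endothelial-like) to 18 and 41 (Timp4, fibroblast-like), and with 5 CPM added to both levels none of the 4 passed. In smooth muscle-like cells 1 of 25 passed (4.75%), Adamts4, which was lower in sham with 10 counts against 50. None passed of 10 genes in pericyte-like (6.35%), 4 in cardiomyocyte-like (8.35%) and 3 in neutrophil-like cells (10.1%), nor of 39 over all cells (3.84%).

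CLP over sham sets the septic library against the sham library. Fibroblast-like cells of the CLP library were higher in the inhibitor Timp1, the stromelysin Mmp3 and the crosslinker Lox, each over 4-fold. They were lower in Timp3, Loxl2 and 7 Adamts genes, several of the latter from few counts. Endothelial-like cells were higher in Timp4 and lower in the membrane protease Mmp15. Macrophage-like cells were higher in Mmp14, Mmp19 and Timp1 and lower in Timp2, Mmp12 and Mmp13. In fibroblast-like cells 8 of 38 measured genes were at least 2-fold higher and 9 lower, 44.7% in all. Of all genes in these cells 11.2% passed in either direction, 3.68% higher and 7.5% lower. The median log2 ratio was -0.19, against -0.09 for all genes. With 5 CPM added to both levels, 6 genes passed in place of 17.

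The 4 inhibitors did not share 1 direction in sepsis. Timp1 (chrX:20870166-20874735) was at 179, 150, 722 and 917 CPM in fibroblast-like cells of control, sham, CLP and CLP plus stimulation. Both CLP libraries lay above both others, with a log2 ratio of CLP over sham of 2.27 (2.20 to 2.34). A Timp1 UMI was found in 33.1% of sham and 69.6% of CLP fibroblast-like cells, and after each cell was thinned to 1000 UMIs in 7.15% and 28.4%. Timp3 (chr10:86300372-86349506), the matrix-bound inhibitor, was at 1016, 1056, 505 and 267 CPM in the same cells, a log2 ratio of -1.06 (-1.10 to -1.02), and of -0.97 with TMM scaling, which is under the 2-fold limit. Timp2 (chr11:118301069-118355740), which also takes part in the activation of MMP2, was at 1221, 1207, 940 and 439 CPM, a log2 ratio of -0.36 in CLP. The overlapping gene Cep295nl on the strand of Timp2 had 574 counts against its 88646.

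Timp3 lay on the other side in classes of the vessel wall. In endothelial-like cells it was at 756, 733, 1368 and 1862 CPM in the same order, a log2 ratio of 0.90 in CLP over sham, and of 1.04 with TMM scaling. Pericyte-like cells held 568, 607, 892 and 1528 CPM and smooth muscle-like cells 712, 691, 872 and 932, so the 2 CLP libraries were the higher pair in these 3 classes and the lower pair in fibroblast-like cells. The difference between classes was not tested, and the smooth muscle-like cells of CLP plus stimulation numbered 49.

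Timp4 (chr6:115241892-115252205) is an inhibitor known from heart and vessels. Its level in endothelial-like cells was 412, 321, 1448 and 358 CPM, so CLP stood alone at the top and CLP plus stimulation lay between sham and control. The log2 ratio of CLP over sham was 2.17 (2.12 to 2.23). Thinned to 1000 UMIs, 21.4% of sham, 63.3% of CLP and 25.2% of CLP plus stimulation cells held a Timp4 UMI. In macrophage-like cells Timp4 was at 2.61, 1.32, 7.97 and 1.45 CPM and in fibroblast-like cells at 2.80, 1.35, 6.88 and 2.28, the order of the endothelial-like levels and far below them. The 9 endothelial markers summed to 305, 189, 283 and 125 CPM in macrophage-like cells. The share of free RNA in these low Timp4 values was not tested.

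**Figure D1:**
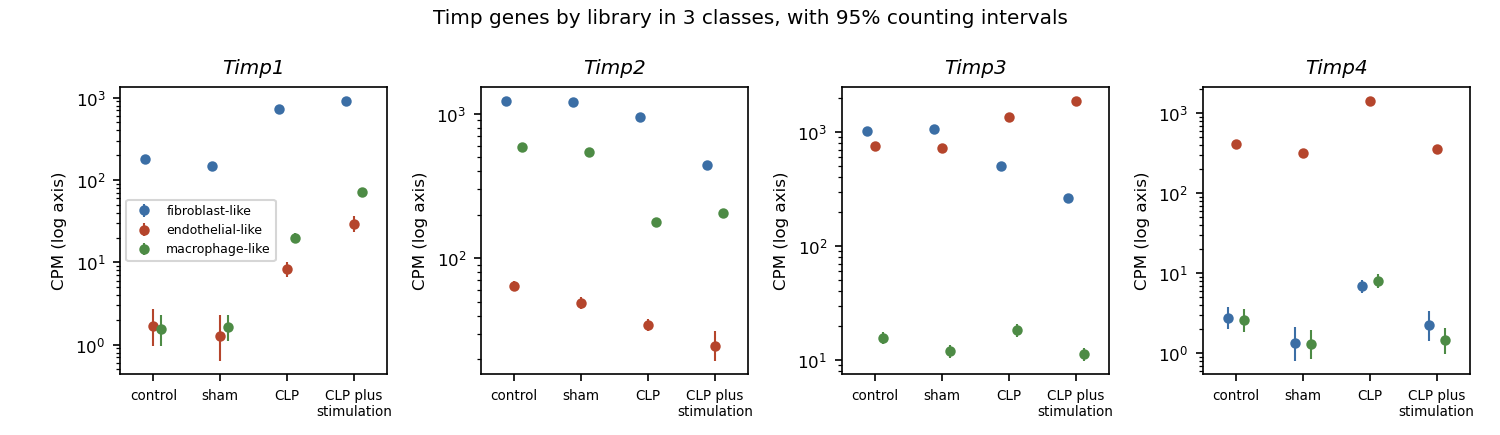
Levels of the 4 Timp genes (CPM, log axis) by library in fibroblast-like, endothelial-like and macrophage-like cells. Points are 1 library each and bars are 95% counting intervals, which are often smaller than the point. Timp1 is higher in both CLP libraries in all 3 classes, Timp3 separates fibroblast-like from endothelial-like cells, and Timp4 is high in endothelial-like cells of CLP alone.

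Among the crosslinkers, Lox and Loxl2 took opposite directions in fibroblast-like cells. Lox, the lysyl oxidase of collagen and elastin, was at 45.4, 55.4, 237 and 381 CPM in the 4 libraries, with both CLP libraries above both others and a log2 ratio of 2.10 (1.98 to 2.21). Thinned cells with a Lox UMI made up 5.09% in sham and 19.3% in CLP. Loxl2 (chr14:69609068-69695834), whose product crosslinks basement membrane collagen, was at 177, 222, 95.6 and 34.4 CPM, a log2 ratio of -1.22 (-1.30 to -1.13). Loxl1, which is needed for elastic fibre upkeep, was at 394, 465, 347 and 293 CPM, Loxl3 at 22.6, 33.6, 28.0 and 16.8 and Loxl4 at 2.46, 2.10, 2.09 and 1.49. None of the latter 3 genes reached 2-fold in CLP over sham.

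Mmp3 had the highest ratio of all measured genes of the 4 families in fibroblast-like cells. Its product, stromelysin-1, cuts many matrix proteins and activates other MMPs. It was at 82.5, 113, 795 and 640 CPM in the 4 libraries, with both CLP libraries well above the others, and the log2 ratio was 2.81 (2.73 to 2.89). A Mmp3 UMI was present in 12.8% of sham and 29.1% of CLP cells, so most fibroblast-like cells had none. Its chromosome 9 neighbour Mmp27, whose printed promoter holds no TGANTCA, was at 2.94, 3.30, 10.7 and 2.97 CPM, a log2 ratio of 1.68 (1.21 to 2.20) in CLP and of 0.92 with 5 CPM added. The gelatinase Mmp2 was nearly level, at 587, 773, 728 and 502 CPM, while Mmp14, the membrane protease that activates it, was at 96.7, 103, 169 and 203.

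The Adamts genes of fibroblast-like cells were mostly lower in CLP. Of 16 measured, 2 were at least 2-fold higher and 7 lower, against 3.68% and 7.5% of all genes. The median log2 ratio was -0.67, against -0.09 for all genes. Adamts10, which acts on fibrillin microfibrils, was at 77.1, 75.9, 28.3 and 12.6 CPM, so the 2 CLP libraries formed the low pair, with a log2 ratio of -1.42 (-1.58 to -1.27). Adamts12 was at 25.7, 29.2, 12.4 and 2.88 CPM (log2 ratio -1.24) and Adamts19 at 5.08 in CLP, from 187 counts in sham and 90 in CLP (log2 ratio -1.46). Adamts8, Adamts14, Adamts17 and Adamts20 were also lower, each from 16 to 60 counts in sham. Their levels were low, with Adamts8 at 1.07 CPM and Adamts14 at 1.92 in CLP. Adamts9, which cleaves versican and aggrecan, was higher at 13.9 in sham and 29.8 CPM in CLP (log2 ratio 1.09), and Adamts7 was higher at 2.85 and 6.26 CPM. Several of these calls ended under another setting: with 5 CPM added Adamts12 came to -0.98, Adamts19 to -0.92 and Mmp19, at 18.2 and 38.6 CPM, to 0.91, and in thinned cells Adamts9 came to 0.70 and Adamts7 to 0.15.

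The Adamts genes with the most counts differed less. The procollagen-trimming Adamts2 was at 337, 362, 209 and 179 CPM, the aggrecanase Adamts5 at 521, 664, 468 and 410, and Adamts1, which cleaves versican, at 416, 442, 467 and 527. None of the 3 reached 2-fold in fibroblast-like cells in any comparison. The 9 endothelial markers summed to 268, 164, 505 and 1231 CPM in fibroblast-like cells of the 4 libraries and the 8 neutrophil markers to 224, 288, 358 and 339. Their part in the fibroblast-like values was not tested.

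**Figure D2:**
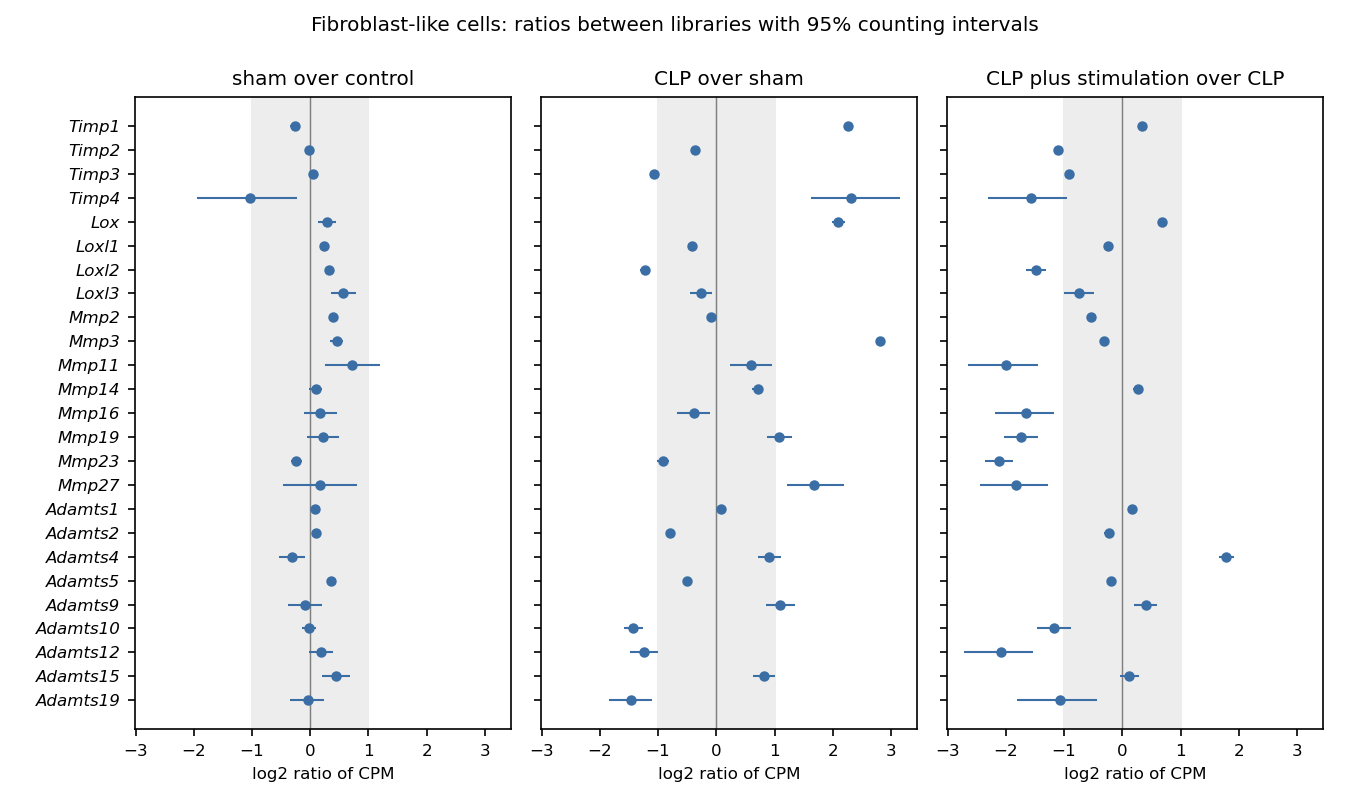
Log2 ratios of CPM in fibroblast-like cells for 25 genes in the 3 comparisons, which share libraries. Points are ratios, bars are 95% counting intervals and the grey band marks differences under 2-fold. The points lie within the band in sham over control except Timp4, spread to both sides in CLP over sham, and lie mostly on the lower side in CLP plus stimulation over CLP.

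Endothelial-like cells held 6 higher and 3 lower genes of 28 in CLP over sham, 32.1% against 11.2% of all genes (4.58% higher and 6.61% lower). Beside Timp4, the aggrecanase Adamts4 was higher, at 8.60, 5.88, 25.8 and 90.6 CPM (log2 ratio 2.12, 1.70 to 2.59). Adamts6 was at 2.94, 1.84, 11.9 and 1.40 CPM, again with CLP alone at the top (log2 ratio 2.65, 1.94 to 3.53). Mmp15 (chr8:95352268-95375080), a membrane-type MMP, was lower at 139, 164, 79.4 and 9.80 CPM (log2 ratio -1.05, and -0.91 with TMM scaling). Adamts5 was also lower in CLP, at 36.2, 38.3, 16.0 and 67.9 CPM. Timp1 and Mmp3 passed the limit as well, but at 8.21 and 4.62 CPM in CLP they lay far below the fibroblast-like levels of 722 and 795, and the 8 fibroblast markers summed to 168, 211, 200 and 245 CPM in endothelial-like cells.

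In macrophage-like cells 6 of 21 genes were higher and 6 lower in CLP over sham, 57.1% against 23.7% of all genes (5.2% higher and 18.5% lower). Fewer passed with 5 CPM added. The higher genes included Timp4, Mmp3 and Lox at low levels. Lox was at 1.10 CPM in CLP, against 237 in fibroblast-like cells. Mmp3 in CLP was at 5.13 CPM in cells with a UMI of Timd4, Lyve1 or Folr2 and at 6.55 in those without. Its fibroblast-like level was 795. Of the lower genes, Mmp15 and Loxl2 took the other sign in thinned cells. Mmp19 (chr10:128790910-128800824) was at 3.74, 2.80, 63.4 and 60.2 CPM in the 4 libraries, the largest called ratio in the 3 main classes at a log2 ratio of 4.49 (4.10 to 4.93). Mmp14 (chr14:54431612-54445364) was at 2.41, 4.28, 54.6 and 134 CPM, with a log2 ratio of 3.66 (3.34 to 4.02). Both CLP libraries were high for both genes. In monocyte-like cells Mmp19 was already at 43.3 CPM in sham, against 72.0 in CLP, from 59 and 51 cells. Thinned to 1000 UMIs, the share of cells with a UMI was 0.309% in sham and 5.84% in CLP for Mmp19 and 0.446% and 4.99% for Mmp14. In neutrophil-like cells thinned alike it was 2.97% in CLP for Mmp19 and 1.69% for Mmp14. The 8 neutrophil markers summed to 67.8, 123, 559 and 843 CPM in macrophage-like cells and the 8 fibroblast markers to 116, 111, 120 and 96.4.

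Timp1 in macrophage-like cells was at 1.54, 1.64, 19.9 and 71.4 CPM, with a log2 ratio of 3.58 (3.06 to 4.19) in CLP. It stayed far under the fibroblast-like level, and T or NK cell-like cells of CLP plus stimulation held 26.7 CPM of Timp1 from 27 counts. The share of free RNA in it was not tested. The lower genes included an inhibitor and both macrophage proteases of the chromosome 9 block. Timp2 was at 589, 545, 178 and 206 CPM (log2 ratio -1.61, -1.68 to -1.55), Mmp12 at 26.1, 30.9, 12.2 and 18.8 (-1.33, -1.60 to -1.08) and Mmp13 at 48.3, 67.2, 28.0 and 29.8 (-1.26, -1.44 to -1.09). All 3 were lower in each CLP library than in control and sham. Mmp12 and Mmp13 thus lay on the lower side in CLP and their neighbour Mmp3 on the higher side, in another class. TGANTCA was found before the starts of Mmp3 and Mmp13 and before the second but not the first start of Mmp12.

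**Figure D3:**
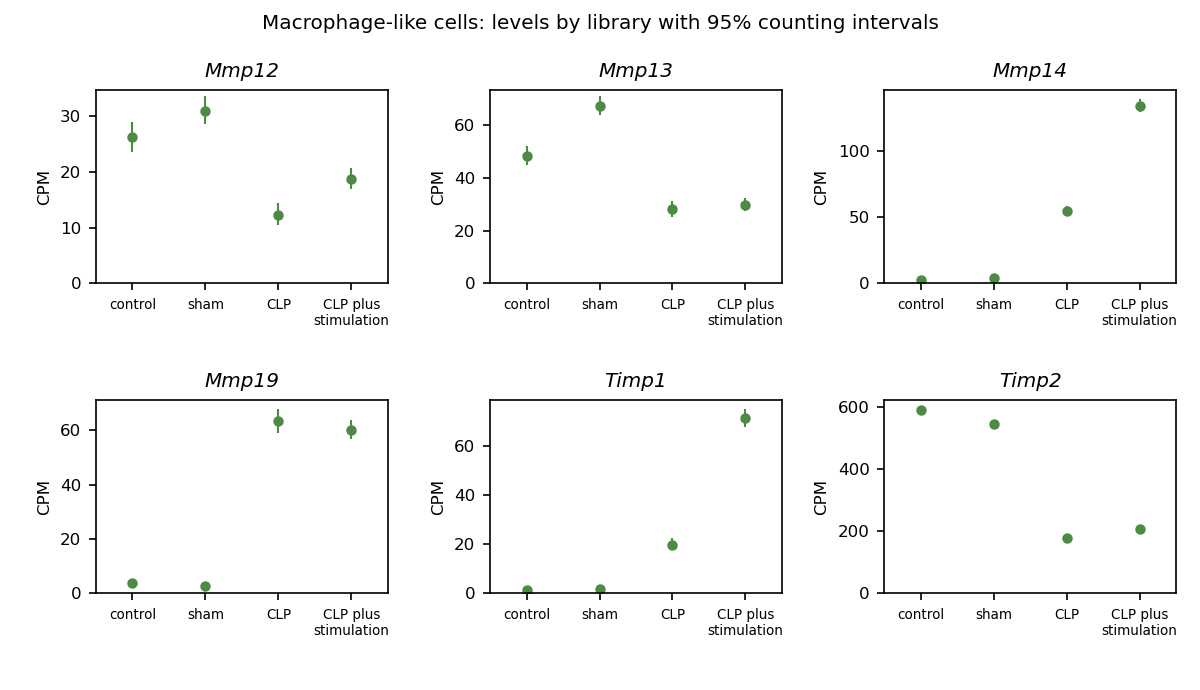
Levels (CPM) of 6 genes in macrophage-like cells by library, with 95% counting intervals. Mmp14, Mmp19 and Timp1 are near 0 in control and sham and higher in both CLP libraries, whereas Timp2, Mmp12 and Mmp13 are lower there.

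In smooth muscle-like cells 7 of 22 genes passed in CLP over sham (8.76% of all genes). Among them were Timp1 at 10.1 and 42.3 CPM, Timp4 at 10.1 and 82.5 and Mmp23, a membrane-anchored MMP, at 101 and 37.0. Timp1 was at 150 and 722 CPM in fibroblast-like cells and Timp4 at 321 and 1448 in endothelial-like cells. The share of free RNA in the smooth muscle-like values was not tested. Mmp25, a membrane-anchored MMP of neutrophils, was at 21.4, 25.2, 68.0 and 62.5 CPM in neutrophil-like cells, from 16 counts in sham and 125 in CLP, and its log2 ratio in CLP was 1.40 (0.68 to 2.29). Among 6 genes measured there, 3 passed, all of them higher, against 24.1% of all genes in either direction. In pericyte-like cells 2 of 8 passed (10.5%), in cardiomyocyte-like cells 2 of 4 (17.7%) and in monocyte-like cells 1 of 2 (15.5%).

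CLP plus stimulation over CLP asks whether the stimulated septic library differs from the septic one, and it uses the same CLP library as the comparison before it. In fibroblast-like cells more of the genes were lower than higher. The aggrecanase Adamts4 was higher in fibroblast-like, endothelial-like and pericyte-like cells. Endothelial-like cells were higher in Adamts1, Adamts5, Adamts9 and Mmp14 and lower in Timp4 and Mmp15. Macrophage-like cells were higher in Mmp14 and Timp1.

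Of 35 genes in fibroblast-like cells 2 were at least 2-fold higher and 16 lower, 51.4% against 21.7% of all genes in either direction (4.6% higher and 17.1% lower). The median log2 ratio was -0.74, against -0.22 for all genes. TMM scaling moved the median of all genes by 0.20 in this comparison, by 0.14 and 0.10 in endothelial-like cells of CLP over sham and of CLP plus stimulation over CLP, and by 0.23 in macrophage-like cells of CLP over sham. Of 12 measured Mmp genes 10 were lower with either scaling, with medians of -1.58 and -1.37. Mmp23 was lowest of the well-counted ones, at 161, 136, 72.0 and 16.7 CPM (log2 ratio -2.11, -2.35 to -1.88), which places both CLP libraries under the others. Mmp19 was at 38.6 CPM in CLP and 11.6 in CLP plus stimulation (log2 ratio -1.73, -2.03 to -1.45), below control and sham. Mmp11, Mmp16 and Mmp27 were lower, with log2 ratios of -1.99, -1.65 and -1.82.

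Timp1 and Lox did not follow the majority. Between CLP and CLP plus stimulation Timp1 differed by a log2 ratio of 0.34, Lox by 0.69 and Mmp3 by -0.31, all under 2-fold and with intervals that exclude 0, so the high levels of the CLP library were also present in CLP plus stimulation. Timp2 had a log2 ratio of -1.10 (-0.89 with TMM scaling), Timp3 of -0.92 and Loxl2 of -1.47 (-1.65 to -1.31). For Loxl2, Adamts10, Adamts12 and Adamts19 the stimulated library thus lay further from sham than CLP did, with log2 ratios over CLP of -1.47, -1.17, -2.08 and -1.07. With TMM scaling Adamts10 and Adamts19 came to -0.96 and -0.87, under the limit.

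Adamts4 was called higher in 4 classes, and Timp1 and Mmp14 in 5 each. CLP and CLP plus stimulation each had 8 classes with at least 50 cells, not all the same. The median Timp1 level over them was 14.04 CPM in CLP and 41.82 in CLP plus stimulation, and for Mmp14 32.75 and 116.5. The lowest class held 7.20 and 20.7 CPM of Timp1 and 8.16 and 15.8 of Mmp14. Timp1 was not called in fibroblast-like cells, which held 84.5% of its UMIs. The share of free RNA in these levels was not tested. The level of Adamts4 (chr1:171250421-171260637) in CLP and CLP plus stimulation was 41.7 and 143 CPM in fibroblast-like cells (log2 ratio 1.78, 1.65 to 1.91), 25.8 and 90.6 in endothelial-like cells (1.81, 1.57 to 2.05) and 75.7 and 339 in pericyte-like cells (2.14, 1.37 to 3.01, from 19 and 49 counts). In macrophage-like cells it was at 0.631 and 2.32 CPM (1.80, 0.78 to 3.17), and 0.38 with 5 CPM added. Thinned to 1000 UMIs, 3.79% of CLP and 14.5% of CLP plus stimulation fibroblast-like cells held an Adamts4 UMI.

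In endothelial-like cells 8 of 24 genes were higher and 8 lower in CLP plus stimulation, 66.7% against 28.7% of all genes (9.16% higher and 19.5% lower). These levels rest on 583 cells, of which 91.1% lay in 1 cluster that held none of the control or sham cells. Adamts9 was at 151, 133, 137 and 512 CPM, so 3 libraries lay close together and CLP plus stimulation stood apart (log2 ratio 1.90, 1.80 to 2.01). Adamts1 was at 465, 387, 349 and 815 CPM (1.22, 1.15 to 1.30) and Mmp14 at 12.2, 22.0, 20.9 and 79.1 (1.92, 1.65 to 2.19). Adamts5 was higher by 2.08 and Lox by 2.34, the latter from 41 and 51 counts. Timp1 was higher by 1.84, at 8.21 and 29.4 CPM, and by 0.93 when doublets were kept. The 8 neutrophil markers summed to 40.2, 115, 405 and 617 CPM in these cells and the 8 fibroblast markers to 168, 211, 200 and 245. Their part in the differences was not tested.

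Timp4 was lower, with a log2 ratio of -2.02 (-2.11 to -1.93) and a level within the range of control and sham, and Timp3 differed by 0.44. Mmp15 was at 79.4 and 9.80 CPM, a log2 ratio of -2.99 (-3.62 to -2.48), the lowest of the 4 libraries. Adamts6 and Adamts7, at 1.40 CPM each from 4 counts in CLP plus stimulation, were lower, with log2 ratios of -2.92 (-4.98 to -1.70) and -2.84 (-4.90 to -1.61). Adamts10 had a log2 ratio of -2.16 (-3.10 to -1.44), from 265 and 14 counts.

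**Figure D4:**
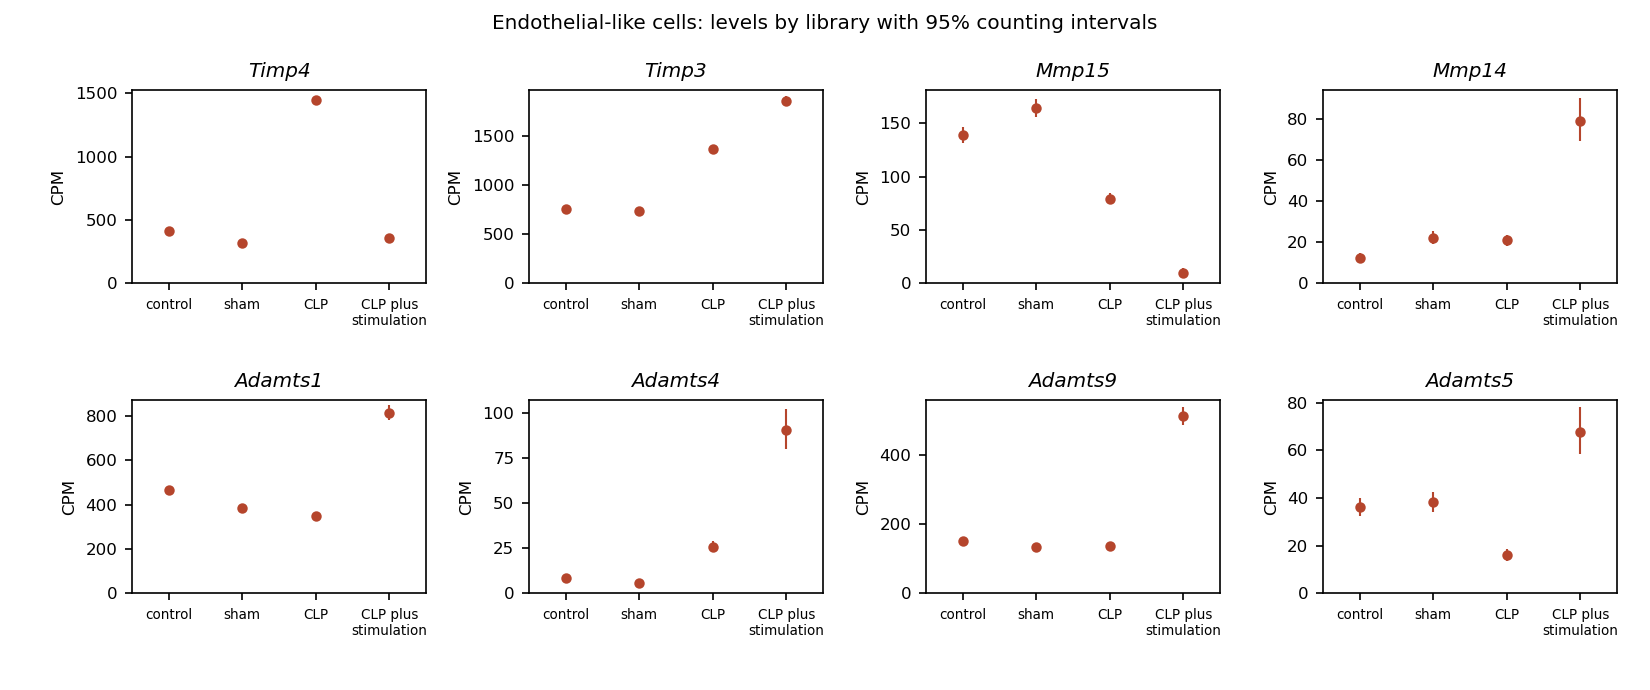
Levels (CPM) of 8 genes in endothelial-like cells by library, with 95% counting intervals. Timp4 is highest in CLP, Mmp15 is lowest in CLP plus stimulation, and Mmp14, Adamts1, Adamts4, Adamts5 and Adamts9 are highest in CLP plus stimulation.

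Macrophage-like cells had 5 of 22 genes higher and 3 lower in CLP plus stimulation over CLP, 36.4% against 17.5% of all genes (8.41% higher and 9.1% lower). With 5 CPM added to both levels, 3 genes passed in place of 8. Among the called genes Adamts4, Adamts9, Lox, Loxl3 and Timp4 were at low levels. Adamts9 was at 1.59 CPM in CLP plus stimulation and Lox at 1.10 in CLP. Mmp14 was higher at 54.6 and 134 CPM (log2 ratio 1.30, 1.18 to 1.42), and 13.4% of thinned cells held a UMI of it against 4.99% in CLP. Timp1 was higher by 1.84 (1.65 to 2.04), while Mmp19, Mmp13 and Timp2 differed by -0.08, 0.09 and 0.21. Adamts1 was lower, at 31.1 and 13.2 CPM (-1.24, -1.47 to -1.01), and at -0.69 in thinned cells. Monocyte-like cells of CLP plus stimulation held 116 CPM of Mmp14 and 54.3 of Timp1, against 30.6 and 7.20 in CLP from 17 and 4 counts, and had 3 of 5 genes called against 28% of all genes. The class itself differed between these libraries: 57.9% of its 121 cells in CLP plus stimulation and 52.9% of its 51 cells in CLP lay near the gate limits, and the 5 monocyte markers summed to 1472 and 4574 CPM. Their part in the result was not tested. In neutrophil-like cells Mmp14 was at 8.16 and 24.7 CPM and Timp1 at 8.16 and 24.9, and 7 of 16 genes passed against 22.7% of all genes. Near the gate limits lay 16.9% of the 261 neutrophil-like cells of CLP and 41.6% of the 580 of CLP plus stimulation. The part of these cells in the neutrophil-like values was not tested. In pericyte-like cells Adamts4, Adamts9 and Mmp14 were the 3 of 6 that passed (19.6% of all genes), all of them higher. In cardiomyocyte-like cells 2 of 4 passed (18.9%).

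Over all cells of a library together, 11 of 39 genes were higher and 5 lower in CLP over sham. In CLP plus stimulation over CLP 1 of 38 was higher and 17 lower. Of all genes 14.2% and 31.1% passed in either direction. Their shares by direction are not given here, so the lean to 1 side cannot be set against that of all genes. In such totals fewer cells of a class and less RNA per cell cannot be told apart, and endothelial-like cells were 26.9% of kept cells in CLP and 7.27% in CLP plus stimulation. Timp1 was nearly level over all cells, at 259 and 263 CPM, while within fibroblast-like cells it was at 722 and 917.

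Within a class the genes were unevenly spread, and part of that pattern recurred in each library. Fibroblast-like cells were split by a UMI of Pi16 or Dpp4, genes of adventitial fibroblasts, and macrophage-like cells by a UMI of Timd4, Lyve1 or Folr2, genes of resident macrophages. Both splits were chosen after the data had been seen and favour deeper cells on the positive side. Fibroblast-like cells with a UMI of Pi16 or Dpp4 numbered 2215, 1293, 1526 and 690 in the 4 libraries, and those without 963, 391, 447 and 552. Mmp3 was lower in Pi16 or Dpp4 cells in all 4 libraries, at 32.3 against 225 CPM in control, 58.5 against 319 in sham, 486 against 1946 in CLP and 507 against 865 in CLP plus stimulation. Loxl2 was higher in them in all 4, by 0.66 to 1.56 on the log2 scale. Timp1 did not keep to 1 side. It was higher in Pi16 or Dpp4 cells in control, at 193 against 141 CPM. It was lower in them in sham (116 against 276), CLP (571 against 1282) and CLP plus stimulation (831 against 1061). Both sides of the split were higher for Mmp3 in CLP than in sham.

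Mmp12 was lower in Timd4, Lyve1 or Folr2 cells than in other macrophage-like cells, at 12.8 against 61.6 CPM in control, 20.1 against 62.0 in sham, 5.77 against 22.5 in CLP and 6.30 against 33.1 in CLP plus stimulation. Mmp13 lay on the same side in all 4 libraries, by -1.51 to -0.86 on the log2 scale. Timp2 lay on the opposite side, at 686 against 331 CPM in control, 633 against 291 in sham, 219 against 113 in CLP and 279 against 122 in CLP plus stimulation. Both parts of the class were lower for Timp2 in CLP than in sham.

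Genes that work with these enzymes were taken from 6 lists, none holding one of the 48. Of 15 elastic fibre genes in fibroblast-like cells, 4 were at least 2-fold lower in CLP over sham and none higher, and 5 and none in CLP plus stimulation over CLP, with all 15 under 0 in both and with either scaling. Of all genes in these cells 7.5% were lower and 3.68% higher in the first comparison, and 17.1% and 4.6% in the second. The medians were -0.68 and -0.80, against -0.09 and -0.22 for all genes. Elastin (Eln), a substrate of Lox, was at 603, 590, 176 and 64.9 CPM in the 4 libraries, and the microfibril gene Mfap2 at 97.6, 90.1, 33.6 and 10.6. Fbln5, which guides elastin assembly, had log2 ratios of -1.76 in CLP over sham and -0.88 in CLP plus stimulation over CLP.

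Of 17 collagen modification and crosslinking partners, 2 were lower and none higher in CLP over sham in fibroblast-like cells, and 4 and none in CLP plus stimulation over CLP, which is near the 7.5% and 17.1% of all genes that were lower. The collagen chaperone Serpinh1 was at 916, 491 and 145 CPM in sham, CLP and CLP plus stimulation. In endothelial-like cells 4 of 17 were higher and none lower in CLP (4.58% and 6.61% of all genes), led by the transglutaminase Tgm2 at 116 and 621 CPM, which crosslinks matrix proteins by another bond than Lox. The ADAMTS substrates and ADAMTS-like genes had 3 lower of 10 in CLP over sham and 4 of 8 in CLP plus stimulation over CLP in fibroblast-like cells, and none higher in either (7.5% and 17.1% of all genes were lower). The medians were -0.69 and -1.03, against -0.09 and -0.22 for all genes. Versican (Vcan), a substrate of several ADAMTS enzymes, was level at 371, 386 and 399 CPM in sham, CLP and CLP plus stimulation.

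The plasminogen system makes plasmin and so activates several MMPs, and its list also holds other genes of protease control. Of 15 measured genes of this list, 3 were higher and none lower in endothelial-like cells in CLP over sham. Of all genes in these cells 4.58% were higher and 6.61% lower. In CLP plus stimulation over CLP 5 were higher and 3 lower, against 9.16% and 19.5% of all genes, so the lower count was near that of all genes. The urokinase receptor Plaur was at 15.2 CPM in sham, 41.1 in CLP and 739 in the stimulated library. In macrophage-like cells 5 of 14 were higher and 2 lower in CLP over sham (5.2% and 18.5% of all genes), with Plaur at 42.0 and 104 CPM and urokinase (Plau) at 40.1 and 11.3. Of the ADAM proteases, Adam8, which is found on leukocytes, was at 7.24, 85.7 and 53.4 CPM in macrophage-like cells, and Adam19 was lower in CLP than in sham in fibroblast-like (-1.34), endothelial-like (-2.43) and macrophage-like (-1.25) cells. Among other matrix proteases in fibroblast-like cells 1 of 12 was higher and 3 lower in CLP over sham (3.68% and 7.5% of all genes). The IGF-binding protein protease Pappa was at 5.55 CPM in sham with a log2 ratio of 1.84, and the fibroblast activation protein Fap at 26.3 in sham and 6.83 in CLP. In CLP plus stimulation over CLP 4 of 13 were higher and 1 lower (4.6% and 17.1% of all genes), with Pappa at 68.5 CPM in the stimulated library.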

How the data were processed

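The authors deposited UMI counts for each gene and barcode, from Chromium 3' v3 libraries (per the labels) and Cell Ranger 5.0.0 (per the file headers). The submitters' processing notes name STAR and mm10. Barcodes with at least 500 UMIs, 200 genes and at most 20% mitochondrial UMIs were kept, and the top Scrublet scores (scanpy 1.11.5), 0.8% per 1000 barcodes, were left out as doublets. A class needed at least 3 of its markers, a mean score (natural log of 1 plus counts per 10000) of at least 0.5 and 1.5 times that of the next class. The gate and its thresholds were set with the data in view. Counts were summed per class and library, with exact Poisson intervals for CPM and exact conditional binomial intervals for ratios (prior count 0.5). A gene was called at 20 counts over both libraries and an absolute log2 ratio of 1. Named genes were all Timp and Lox genes, called or abundant Mmp and Adamts genes, and the extremes of each list, of which not all are printed. The genes, lists and comparisons were chosen with earlier results of these data known. Class sums were also simulated as independent Poisson counts, with 200 changed genes among 13494, 12717 and 12701. Intervals held the true ratio for 94%, 97% and 96% in fibroblast-like, endothelial-like and macrophage-like cells (CLP over sham). The intervals assume the same model, so this checks their calculation only. Spread between cells or libraries was not simulated. Coordinates come from GENCODE vM21 on GRCm38, in which all 48 genes have an entry. Of these, 25 overlap another gene, 4 of them on the same strand.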

Additional observations from a re-analysis of the deposited data

Results flagged for a closer look

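In 2 genes the difference between CLP plus stimulation and CLP was 2-fold or more in opposite directions in 2 cell classes. Adamts1 was lower in macrophage-like cells, with a log2 ratio of -1.24, and higher in endothelial-like cells, at 1.22. Mmp19 was lower in fibroblast-like cells, at -1.73, and higher in endothelial-like cells, at 1.74, the latter from 16 and 13 counts. With 1 library per group neither difference between classes was tested.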

How the results depend on the processing

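No paired analysis was possible because each group has 1 library, and for the same reason no library could be left out. Of 84 recomputed counts of called genes 60 stayed within 1.5 times. In fibroblast-like cells the count for sham over control (1) became 0 with 5 CPM added, 5 with no minimum of counts and 0 in thinned cells. For CLP over sham (17) it was 6 with 5 CPM added and 11 in thinned cells, and for CLP plus stimulation over CLP (18) it was 7 and 9. In endothelial-like cells sham over control (1) gave 2 with TMM scaling, with Leiden clusters, with no doublet removal and in thinned cells, 0 with 5 CPM added and 4 with no minimum, and CLP over sham (9) gave 18 with no minimum. In macrophage-like cells sham over control (2) gave 0 with 5 CPM added, 13 with no minimum, and 1 with Leiden clusters, in thinned cells and in macrophage clusters only. There CLP over sham (12) gave 7 with 5 CPM added, 25 with no minimum and 7 in thinned cells, and CLP plus stimulation over CLP (8) gave 3 with 5 CPM added and 16 with no minimum. The log2 ratio took the other sign in thinned cells for Timp4 in fibroblast-like cells (0.24, sham over control), Mmp23 in endothelial-like cells (0.62, sham over control), and in macrophage-like cells for Adamts9 (0.27, sham over control), Mmp15 (0.088, CLP over sham) and Loxl2 (0.94, CLP over sham). The cause was not tested. Leaving out cells near the gate limits and keeping macrophage clusters only were added after seeing the data. Leaving out cells near the limits kept 83 of 84 called single values. With 5 CPM added, which by construction draws the ratios of low-level genes toward 0, 41 of 84 stayed called. For genes with few counts the counting intervals show what depth limits.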
